A study of Mus musculus with 6 samples.

Results

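Of the genes that build the liver's extracellular matrix and mark its stellate cells, 36 were followed through the livers of wild-type mice and of mice without SIRT7. They were taken from a fixed list of symbols, and all 36 had a probe set with exactly 1 gene symbol in the platform annotation, out of 12393 genes with such a probe set. Where a gene had several such probe sets, the brightest on average was used. The list holds 11 collagens, 9 other matrix genes, 5 genes of matrix proteases and their inhibitors, and 11 genes of stellate cells and their signals. The livers came from 3 samples carrying the wild-type Sirt7 allele and 3 carrying the knock-out allele, all under 1 common treatment. The sources used here give no strain, age, sex, diet or design of the knock-out allele, nor whether SIRT7 was lacking in every cell type. RNA of whole liver was measured on 1-colour Affymetrix arrays, and values are GCRMA expression values on a log2 scale, where 1 unit is a 2-fold change.

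Hepatic stellate cells lie between hepatocytes and the sinusoidal endothelium, store vitamin A as retinyl esters, and are the main source of fibrillar collagen when the liver scars. On activation, driven mainly by TGF-beta and PDGF, they lose their retinoid droplets, take on contractile proteins such as smooth muscle actin and secrete collagen, its cross-linking enzymes and the TIMP proteins that hold back matrix metalloproteases. Portal fibroblasts, vascular smooth muscle, endothelial cells and hepatocytes also make matrix proteins, so none of the collagen genes belongs to stellate cells alone. SIRT7 is a nuclear NAD-dependent deacylase that acts on chromatin.

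Start regions are shown for the genes to which the comparison returns most often. Of the 36 genes, 23 have at least 1 window in the RefSeq promoter table (assembly GRCm38.p6, 26 windows), and the 250 bases before each start were searched. The genes Col4a1 and Col4a2, whose values ranked the livers almost alike, start 21 bases apart on opposite strands, and by these starts their first bases overlap. The stretch below is the plus strand at chr8:11312801-11312830, with the bases from the start of Col4a2 (left end) to that of Col4a1 (right end) in capitals.
Col4a1/Col4a2: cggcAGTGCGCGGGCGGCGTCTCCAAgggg
Shown next are the 250 bases before the starts of Col1a2 (chr6:4505368-4505617, plus strand), Tgfbr2 (chr9:116175364-116175613, minus strand) and Acta2 (chr19:34255374-34255623, minus strand). Knockout and wild-type values of these genes did not overlap. The same held for Des, whose start region is not shown. Capitals mark CCAAT or its reverse complement ATTGG.
Col1a2: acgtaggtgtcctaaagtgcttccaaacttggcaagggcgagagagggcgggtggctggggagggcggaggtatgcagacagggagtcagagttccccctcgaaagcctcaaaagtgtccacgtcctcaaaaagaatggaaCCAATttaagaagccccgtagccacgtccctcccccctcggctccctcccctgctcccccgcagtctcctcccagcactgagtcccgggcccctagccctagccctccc
Tgfbr2: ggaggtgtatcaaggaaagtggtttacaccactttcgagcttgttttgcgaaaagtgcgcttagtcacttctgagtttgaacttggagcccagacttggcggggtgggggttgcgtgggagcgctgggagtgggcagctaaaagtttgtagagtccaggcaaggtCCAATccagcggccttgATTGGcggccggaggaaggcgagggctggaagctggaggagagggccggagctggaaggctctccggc
Acta2: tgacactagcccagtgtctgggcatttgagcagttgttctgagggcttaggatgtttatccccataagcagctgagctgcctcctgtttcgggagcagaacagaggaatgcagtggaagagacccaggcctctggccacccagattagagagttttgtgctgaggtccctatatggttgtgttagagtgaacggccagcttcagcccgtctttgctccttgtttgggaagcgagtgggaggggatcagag
CCAAT lay, on either strand, in 11 of the 26 windows of these genes and in 33.8% of all 32851 windows in the table. In Col1a2 it lay from -109 to -105, counted from the start, and Tgfbr2 held it on both strands. TATAAA was found in 2 of the 26 windows (Col3a1 and Vim; 12.4% of all windows), CACGTG, the E-box bound by MYC, in 1 (Reln; 6.02%), TGANTCA in 1 (Col6a1; 6.75%), CCGGAAG in 1 (Reln; 6.91%) and the CArG box in 0 (1.47%), each on either strand. The CArG box was searched strictly, as CC, then 6 bases that are each A or T, then GG, so elements that depart from this by any base were not counted, in the Acta2 window or elsewhere. These are matches of letters in a window. CACGTG and TGANTCA read the same on both strands, and no other pair of motifs overlapped in these windows.

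Sirt7 itself fell from 9.74 ± 0.15 to 2.78 ± 0.37 (SD, n = 3 each; limma adjusted p = 3.99e-06), with no overlap, so this check does not go against the labels. Hepatocyte markers such as Alb and Apoa1 were high in all livers (12.88 and 13.64 in wild type), as a liver sample would have. Of 10 stellate cell markers written down for this tissue, 9 were on the array and 7 passed the expression filter, a mean log2 value of at least 4 over the 6 livers. Reln, Rgs5 and Pdgfrb were well above it, Lrat, Des, Hgf and Cygb lay between 4 and 4.5, and the transcription factor genes Hand2 and Lhx2 were below it. The labels do not say that the 3 samples of a group are separate animals, and the p-values then cover only the spread among these samples, part of which may be technical. In whole tissue, fewer cells of a type and less RNA per cell cannot be told apart.

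No collagen, matrix, protease or stellate cell gene passed the test between knockout and wild-type livers. Of the 36 genes, 33 passed the expression filter, and limma called 0 of them at an adjusted p under 0.05, against 2 of all 8343 genes tested (0.024%). The smallest adjusted p among them was 0.76. At an unadjusted p under 0.05 there were 2 (6.06%), Col1a2 and Tgfbr2, both lower, against 6.46% of all genes (3.42% lower and 3.04% higher). Knockout and wild-type values did not overlap in 4 (12.1%), Col1a2, Tgfbr2, Acta2 and Des, each lower in knockout, against 9.74% of all genes in either direction, 5.48% in the lower direction and 4.27% in the higher. The share with an unadjusted p under 0.05 is near that of the whole array. Des passed the expression filter only through its wild-type livers and Hgf only through its knockout livers. Both remain in the counts of this paragraph, Des also among the 4 without overlap, but their directions should be given no weight. By size, 12 genes differed upward and 21 downward, with a median of -0.09 against -0.03 over all genes, of which 54.6% differed downward and 45.4% upward. For 26 of the 33 the 95% interval lay inside a 2-fold change either way. For the other 7, intervals reached past a 2-fold lower value, and 0 reached past a 2-fold higher one.

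**Figure D1:**
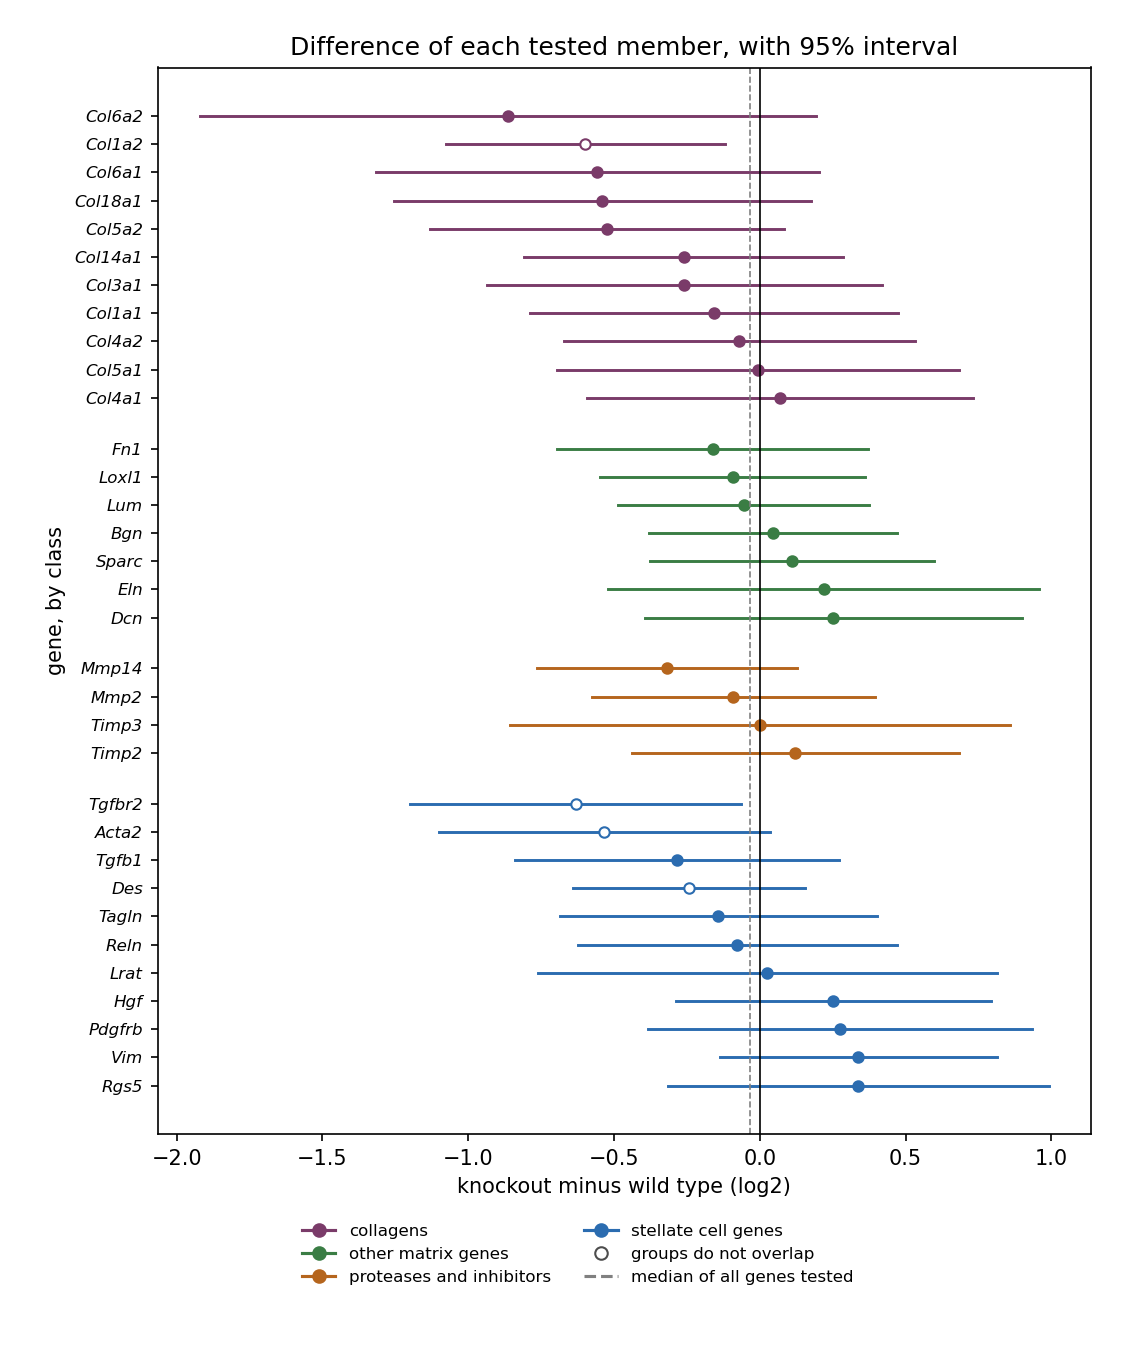
Knockout minus wild-type difference in log2 units (x axis) with its 95% interval for each of the 33 tested genes (y axis), grouped by class. Open circles mark genes whose groups do not overlap, and the dashed line is the median of all genes tested, -0.03. Of the 11 collagens, 10 lie left of 0, and the intervals of Col1a2 and Tgfbr2 are the ones that leave out 0.

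Collagens lay lower in knockout livers by a median of -0.26, with 10 of 11 below 0 and Col4a1 above. None passed the test over all genes, and 1 had an unadjusted p under 0.05. Type I collagen, the main fibre of scar tissue, is a trimer of chains from Col1a1 and Col1a2. Col1a2 was at 8.03, 7.88 and 8.18 in the wild-type livers, against knockout values of 7.15, 7.44 and 7.71, each given in the order of replicates 1 to 3 here and throughout. All knockout values were below all wild-type values, with the nearest pair at 7.88 and 7.71, and the difference was -0.60 (SE 0.21, 95% interval -1.08 to -0.12), a 1.51-fold lower mean (limma unadjusted p = 0.02, adjusted p = 0.76). Its second probe set differed by -0.04, at 6.95, 6.84 and 8.002 in wild type and 7.35, 7.58 and 6.75 in knockout, so the separation was seen on 1 of its 2 probe sets. Its partner Col1a1 had wild-type values of 9.18, 8.84 and 9.66 and knockout values of 8.72, 9.48 and 9.02. These groups overlap, with the highest value in wild-type replicate 3 and the next in knockout replicate 2, and the difference was -0.16 (SE 0.28, 95% interval -0.79 to 0.47).

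Col3a1, whose type III fibrils run with type I, followed the order of Col1a1 in its highest livers, with wild-type values of 10.17, 9.67 and 10.77 and knockout values of 9.84, 10.27 and 9.72. Wild-type replicate 3 was again highest and knockout replicate 2 next, and the difference was -0.26 (SE 0.30, 95% interval -0.94 to 0.42). Type V collagen takes part in starting fibrils. Its chain gene Col5a2 differed by -0.52 (SE 0.27, 95% interval -1.13 to 0.08), with wild-type values of 6.498, 5.97 and 6.12 and knockout values of 5.34, 5.49 and 6.18, with knockout replicate 3 among the wild-type values. Its second probe set differed by -0.02. Col5a1 differed by -0.01 (SE 0.30), from 6.001 to 6.95 in wild type and 6.36 to 7.03 in knockout. Col14a1, a fibril-associated collagen, differed by -0.26 (SE 0.24) on the probe set used. On its second probe set the groups did not overlap, at 7.40, 6.84 and 7.07 in wild type against 5.35, 6.51 and 6.51 in knockout, a difference of -0.98 (SE 0.33, limma adjusted p = 0.791 over all probe sets).

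The type VI chain gene Col6a2, part of a microfibrillar collagen, had the largest difference of the 11 collagens and a wide spread between livers. Col6a2 had wild-type values of 7.67, 6.78 and 6.34 and knockout values of 5.28, 5.93 and 6.99, a difference of -0.86 (SE 0.46, 95% interval -1.92 to 0.19). The range within each group exceeded the difference between their means, from 6.34 to 7.67 in wild type and from 5.28 to 6.99 in knockout. Col6a1 went the same way, with wild-type values of 7.97, 7.47 and 7.40 and knockout values of 6.43, 6.99 and 7.75, a difference of -0.56 (SE 0.33, 95% interval -1.32 to 0.20). In both genes wild-type replicate 1 was highest, knockout replicate 3 next and knockout replicate 1 lowest. Col18a1, the precursor of endostatin, is made in liver largely by hepatocytes. It had wild-type values of 11.12, 11.60 and 11.44 and knockout values of 10.24, 10.81 and 11.49, a difference of -0.54 (SE 0.31, 95% interval -1.26 to 0.18), with knockout replicate 3 among the wild-type values.

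Type IV collagen, the network of basement membranes, showed the liver-to-liver pattern with almost no difference between group means. Col4a1 had wild-type values of 10.31, 10.05 and 10.33 and knockout values of 9.78, 10.20 and 10.93, a difference of 0.07 (SE 0.29, 95% interval -0.59 to 0.73). Col4a2 had wild-type values of 10.10, 10.02 and 10.26 and knockout values of 9.61, 9.97 and 10.60, a difference of -0.07 (SE 0.26, 95% interval -0.67 to 0.53). Knockout replicate 3 was highest and knockout replicate 1 lowest in both genes, and wild-type replicates 3 and 1 followed the highest liver in both. The mean deviation of the pair from its average over the 6 livers was -0.49 in knockout replicate 1 and 0.58 in knockout replicate 3, against 0.03, -0.14 and 0.12 in wild-type replicates 1 to 3. The 3 knockout livers thus spread over a wider range than the 3 wild-type livers.

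**Figure D2:**
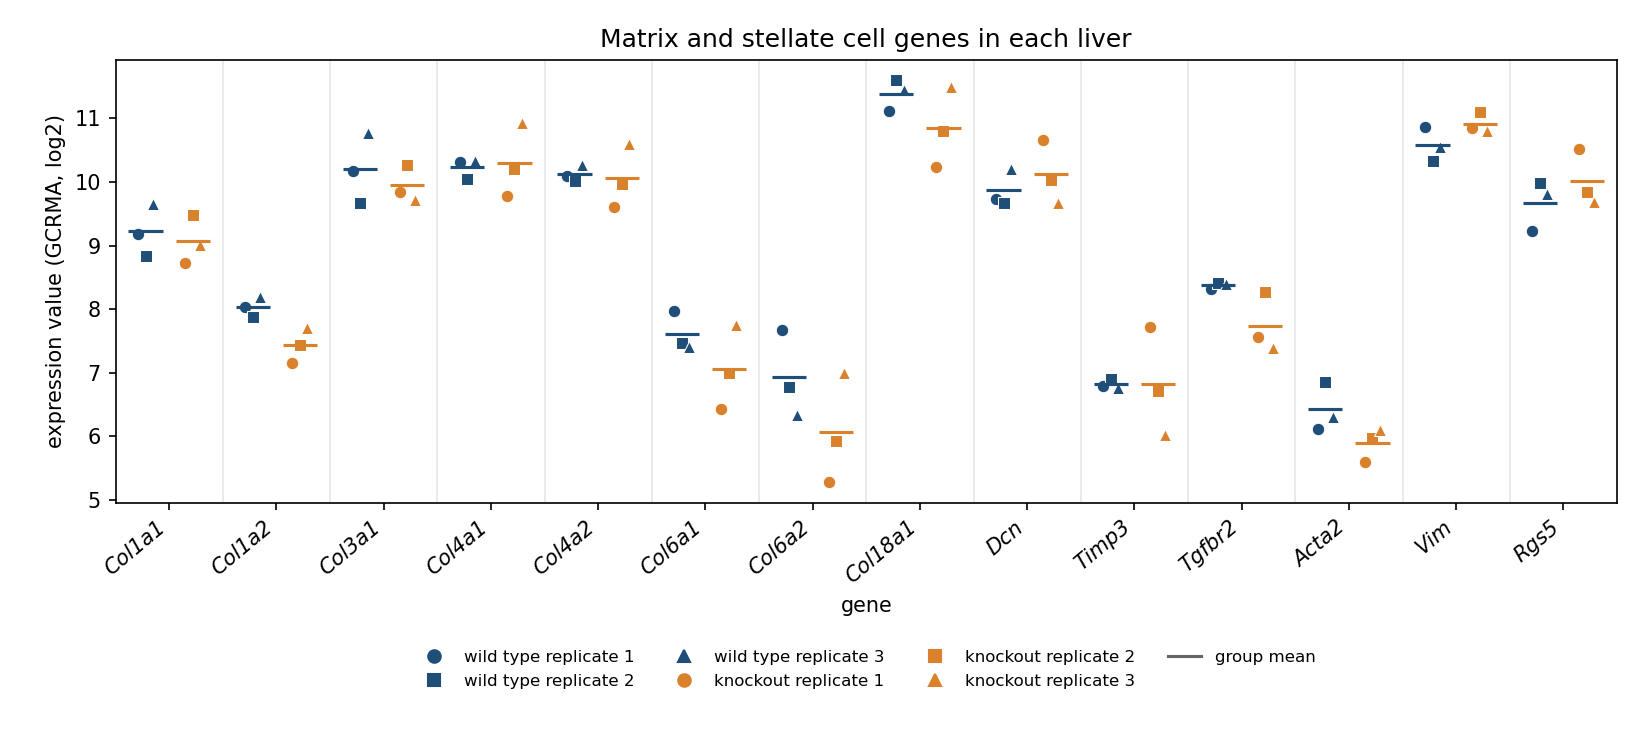
Expression value (y axis, GCRMA, log2) of 14 genes (x axis) in each liver. Blue symbols are wild-type and orange symbols knockout livers, the shape gives the replicate number, and bars are group means. The groups separate in Col1a2, Tgfbr2 and Acta2, and knockout replicate 1 is the lowest liver in Col4a1, Col4a2, Col6a1, Col6a2 and Col18a1. Levels of different genes are not comparable on this axis.

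Knockout replicate 1 held the lowest value of 8 of the 11 collagens (72.7%), against 2423 of all 8343 genes tested (29.0%), where it was also the most frequent lowest liver. Across the 11 collagens the mean deviation was -0.57 in this liver, -0.14 and 0.20 in knockout replicates 2 and 3, and 0.30, -0.05 and 0.27 in wild-type replicates 1 to 3. The median SD over the 3 livers of a group was 0.27 in wild type and 0.45 in knockout for collagens, and 0.23 and 0.28 over all genes. The SD was larger in knockout for 8 of the 11 collagens, against 59.6% of all genes. In the same liver, knockout replicate 1, the mean deviation of markers of other cell types was 0.67 for proliferating cells (6 genes), 0.35 for Kupffer cells and macrophages (12 genes) and 0.29 for sinusoidal endothelium (14 genes). It was -0.86 for lymphocytes (6 genes), -0.52 for mesothelial cells (2 genes), -0.51 for erythroid cells (3 genes), -0.42 for portal fibroblasts (5 genes), -0.29 for cholangiocytes (3 genes), -0.12 for vascular smooth muscle (4 genes) and -0.06 for hepatocytes (6 genes). The 1 tested pancreatic gene, Cela1, deviated by 0.05. Their part in the collagen values was not tested. Without this liver, knockout replicate 1, 7 of the 11 collagens lay lower and 4 higher, with a median of -0.21. In that fit 0 of the 11 had an unadjusted p under 0.05. Without wild-type replicate 3 the split was the same, 7 to 4, with a median of -0.13. Without knockout replicate 3, 11 of 11 lay lower with a median of -0.34, and 5 of them (Col1a2, Col5a2, Col6a1, Col6a2 and Col18a1) had an unadjusted p under 0.05, against 11% of all genes in that direction and 16.6% in either. With limma's adjustment, 0 passed.

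**Figure D3:**
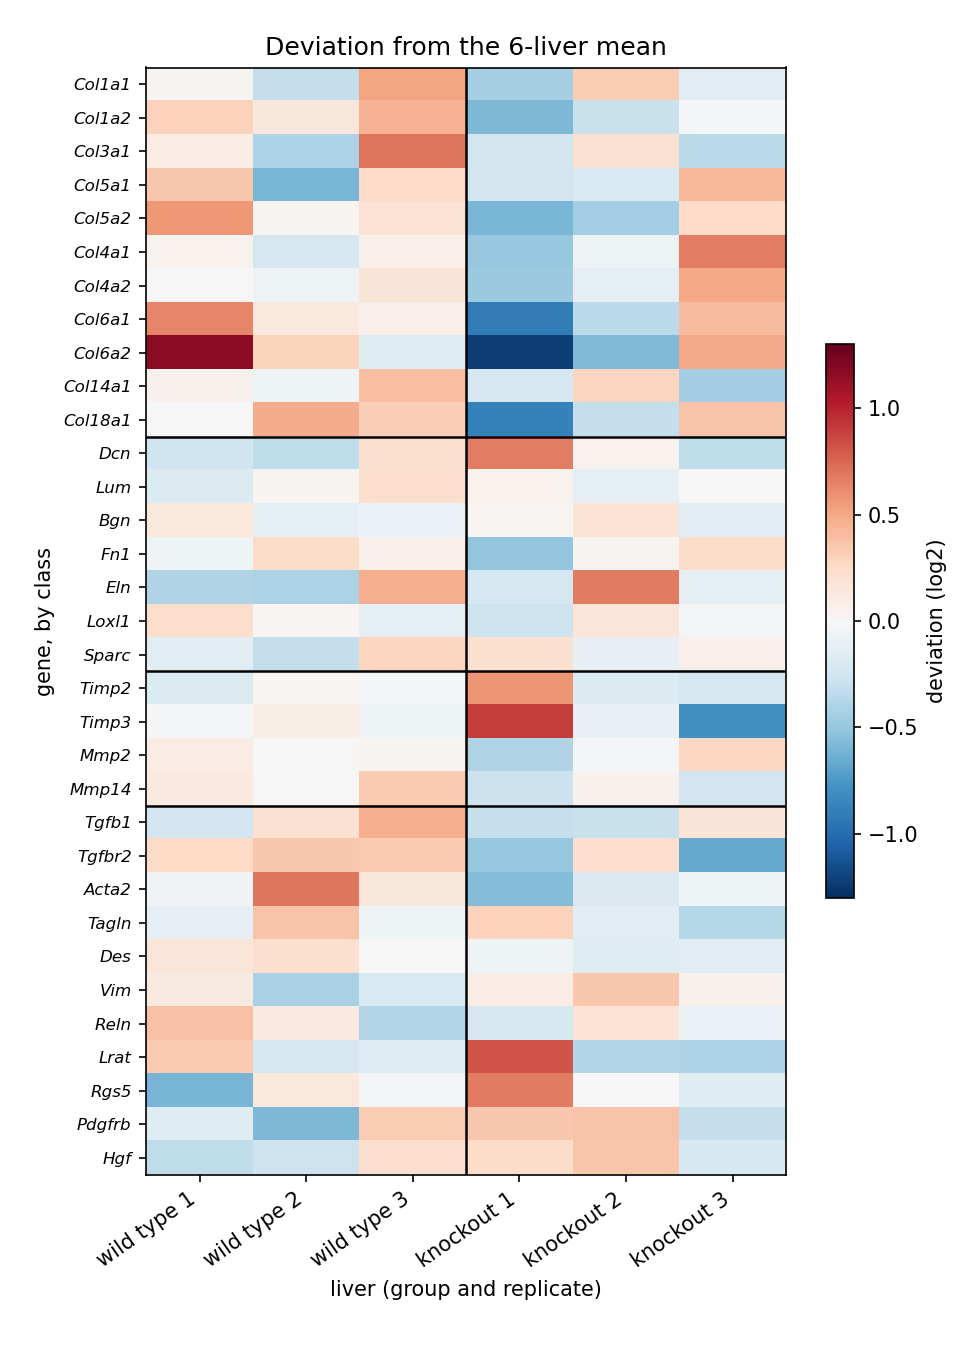
Deviation of each tested gene (rows, by class) from its mean over the 6 livers, in log2 units (colour, red above and blue below the mean), for each liver (columns). The collagen rows are mostly blue in knockout replicate 1, where their mean deviation is -0.57, while Dcn, Timp2, Timp3, Lrat and Rgs5 are at their highest in that liver.

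Of the 9 other matrix genes 7 passed the filter, with 4 above 0 and 3 below, with a median of 0.04 and 0 called by limma. The small leucine-rich proteoglycans decorin, lumican and biglycan coat collagen fibrils. Dcn had wild-type values of 9.73, 9.66 and 10.21 and knockout values of 10.65, 10.04 and 9.67, a difference of 0.25 (SE 0.28, 95% interval -0.39 to 0.90), and knockout replicate 1, the lowest liver for most collagens, was its highest. Lum differed by -0.05 (SE 0.19). Bgn differed by 0.04 (SE 0.19) on the probe set used and by -0.23 and -0.19 on the others, so its sign depends on the probe set. Fn1, the fibronectin gene, which hepatocytes express for the plasma form, had wild-type values of 11.77, 12.06 and 11.90 and knockout values of 11.31, 11.86 and 12.07, a difference of -0.16 (SE 0.23, 95% interval -0.70 to 0.37). Sparc, a collagen-binding matricellular protein, differed by 0.11 (SE 0.21).

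Elastin and the lysyl oxidases that cross-link it and collagen come next. Eln had wild-type values of 5.63, 5.62 and 6.499 and knockout values of 5.80, 6.70 and 5.91, a difference of 0.22 (SE 0.32, 95% interval -0.52 to 0.96), with 1 high liver in each group. Loxl1, a lysyl oxidase that acts on elastin, differed by -0.09 (SE 0.20) just above the filter, at a mean of 4.15. Lox was below the filter and was not tested, with wild-type values of 4.06, 3.54 and 3.80 and knockout values of 3.37, 3.38 and 3.10, with no overlap between groups on this probe set and differences of -0.07 and 0.07 on its others, which were dimmer still. Thbs1, an activator of latent TGF-beta, was also below the filter, between 2.38 and 2.90. At such values GCRMA differences are not proportional to RNA amounts.

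Proteases and inhibitors stood close to wild-type values on average, with 2 of 4 tested genes above 0, 2 below and a median of -0.04. Timp1, the inhibitor that marks fibrogenic and inflamed liver, was below the filter in every liver, with wild-type values of 2.60, 2.92 and 2.82 and knockout values of 2.75, 2.71 and 3.09. Timp3, an inhibitor bound to matrix, had nearly equal group means on the probe set used and unequal spread, with wild-type values of 6.80, 6.91 and 6.76 and knockout values of 7.72, 6.72 and 6.03. The wild-type livers ran from 6.76 to 6.91 while the knockout livers ran from 6.03 to 7.72, and the difference was 0.001 (SE 0.38, 95% interval -0.86 to 0.86). Its other probe sets above the filter differed by 0.08 (SE 0.39) and 0.43 (SE 0.34). Both gave the same order of knockout livers, with 7.60, 6.83 and 5.80 on the former and 5.52, 4.79 and 4.16 on the latter. Timp2 had wild-type values of 6.79, 7.001 and 6.94 and knockout values of 7.54, 6.80 and 6.76, a difference of 0.12 (SE 0.25, 95% interval -0.44 to 0.68), with the high value again in knockout replicate 1. Its 2 other probe sets above the filter differed by -0.14 and -0.12.

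Mmp14, a membrane-bound collagenase that activates proMMP2, had wild-type values of 4.95, 4.83 and 5.17 and knockout values of 4.54, 4.88 and 4.57, a difference of -0.32 (SE 0.20, 95% interval -0.76 to 0.13). Mmp2, the gelatinase that stellate cells secrete, had wild-type values of 5.47, 5.39 and 5.42 and knockout values of 4.99, 5.36 and 5.65, a difference of -0.09 (SE 0.21, 95% interval -0.58 to 0.39), with 0.12 on its second probe set. Wild-type values of Mmp2 were close together and the knockout values lay on both sides of them. Like the type IV collagens, Mmp2 was lowest in knockout replicate 1 and highest in knockout replicate 3.

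Among stellate cell genes 5 lay above 0 and 6 below, with a median of -0.08 and 0 called by limma. Hgf, among those above, and Des, among those below, each passed the filter through 1 group only. Their directions should be given no weight in this split. The genes of the contractile, activated state were taken first. Acta2, smooth muscle actin, had wild-type values of 6.11, 6.86 and 6.31 and knockout values of 5.60, 5.97 and 6.10. Each knockout value was below each wild-type value, though the nearest, 6.10 and 6.11, almost met, and the difference was -0.53 (SE 0.25, 95% interval -1.10 to 0.03). Its limma unadjusted p was 0.0623 and its adjusted p 0.773. Tagln, another smooth muscle protein, overlapped between groups, with wild-type values of 6.64, 7.13 and 6.70 and knockout values of 7.05, 6.61 and 6.38, a difference of -0.14 (SE 0.24, 95% interval -0.69 to 0.40). Des, the desmin filament of stellate cells and muscle, had wild-type values of 4.25, 4.30 and 4.08 and knockout values of 4.04, 3.94 and 3.94, a difference of -0.24 (SE 0.18, 95% interval -0.64 to 0.16) with no overlap. Its values lie at the filter. Of the vascular smooth muscle markers, Myh11, Cnn1, Actg2, Lmod1 and Synpo2 were below the filter in the mean of both groups.

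Vim, the vimentin filament of mesenchymal cells, differed upward, with wild-type values of 10.86, 10.33 and 10.55 and knockout values of 10.85, 11.10 and 10.81, a difference of 0.34 (SE 0.21, 95% interval -0.14 to 0.81). On its other probe sets it differed by 0.22 (SE 0.19) and 0.65 (SE 0.24), the latter without overlap (7.34, 7.27 and 8.02 against 8.33, 8.12 and 8.13) and with a limma adjusted p of 0.809 over all probe sets. Lrat, which esterifies retinol for storage and marks quiescent stellate cells, had wild-type values of 4.79, 4.23 and 4.28 and knockout values of 5.27, 4.07 and 4.05, a difference of 0.03 (SE 0.34, 95% interval -0.76 to 0.81). The high value was that of knockout replicate 1, with the other knockout livers at the bottom of the range. Reln, the reelin glycoprotein made in liver by stellate cells, had wild-type values of 10.38, 10.13 and 9.62 and knockout values of 9.79, 10.18 and 9.93, a difference of -0.08 (SE 0.24, 95% interval -0.62 to 0.47).

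The pericyte genes Rgs5 and Pdgfrb lay above 0 without passing the test. Rgs5, a regulator of G protein signalling, had wild-type values of 9.24, 9.98 and 9.81 and knockout values of 10.52, 9.84 and 9.68, a difference of 0.34 (SE 0.29, 95% interval -0.32 to 0.99), highest in knockout replicate 1. Its other probe sets above the filter differed by 0.75 (SE 1.04) and 0.74 (SE 0.55), with the same liver highest. Pdgfrb, the receptor through which PDGF drives stellate cell growth, had wild-type values of 7.51, 7.09 and 7.997 and knockout values of 8.02, 8.04 and 7.36, a difference of 0.28 (SE 0.29, 95% interval -0.38 to 0.93). Hgf, the hepatocyte growth factor that stellate cells supply to hepatocytes, lay at the filter with a mean of 4.02 and differed by 0.25 (SE 0.24). Its mean was 3.90 in wild-type and 4.15 in knockout livers, so it was tested only through the group where it was higher.

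In TGF-beta signalling, the ligand gene Tgfb1 was close to the filter, with wild-type values of 3.91, 4.35 and 4.63 and knockout values of 3.86, 3.87 and 4.32, a difference of -0.28 (SE 0.24, 95% interval -0.84 to 0.27). Its type II receptor gene Tgfbr2 had wild-type values of 8.32, 8.41 and 8.39 and knockout values of 7.56, 8.27 and 7.39. The wild-type livers ran from 8.32 to 8.41 and all knockout livers were below them, knockout replicate 2 by little and the other pair by more. The difference was -0.63 (SE 0.25, 95% interval -1.20 to -0.06), a 1.55-fold lower mean (limma unadjusted p = 0.0332, adjusted p = 0.769). Without each liver in turn it lay between -0.90 and -0.46. The other Tgfbr2 probe sets were below the filter.

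Wider lists of the same pathways, which hold none of the 36 genes, were counted in the same fit, and limma called 0 genes in each. Of 15 tested genes of other collagens and collagen-processing enzymes, 4 lay above 0 and 11 below, with a median of -0.18 and 0 at an unadjusted p under 0.05. Those with the smallest p were the basement membrane chain gene Col4a5, at 0.69 (SE 0.31), and Col15a1, at -0.75 (SE 0.48). Of 22 other matrix proteins, 9 lay above 0 and 13 below, with a median of -0.08. The 5 at an unadjusted p under 0.05 were all lower. Sparcl1, a relative of Sparc, differed by -0.91 (SE 0.23), the laminin chains Lama2 and Lama4 by -0.70 (SE 0.24) and -0.57 (SE 0.23), the proteoglycan Ogn by -0.76 (SE 0.30) and Efemp1, a fibulin, by -0.74 (SE 0.30). That is 5 of 22 against 3.42% of all genes in that direction. The groups did not overlap in 3 of the 22, against 5.48% of all genes in that direction. These were Sparcl1 (5.05, 5.12 and 4.62 against 3.81, 3.89 and 4.36), Lama2 and Lama4. Knockout replicate 1 was the lowest liver in Sparcl1, Lama2, Lama4 and Efemp1, and knockout replicate 2 in Ogn. The knockout mean of Sparcl1, 4.02, lay at the filter. The smallest limma adjusted p of this list was 0.652.

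Of 6 tested proteases and inhibitors outside the 36 genes, 3 lay above 0 and 3 below, 11 more were under the filter, and the smallest p belonged to Adamts1, which differed by -0.23 (SE 0.18), and Mmp23, by -0.30 (SE 0.32). Of 22 genes of TGF-beta and PDGF signalling, 9 lay above 0 and 13 below, with 1 at an unadjusted p under 0.05. It was Tgif1, a repressor of SMAD activity, which differed by 0.67 (SE 0.22, 95% interval 0.16 to 1.17) without overlap. Its wild-type values were 6.496, 6.30 and 6.76 and its knockout values 7.52, 6.98 and 7.06. The groups also did not overlap in Ltbp1, at 0.55 (SE 0.25), and Pdgfc, at -0.42 (SE 0.20). Of all genes, 3.04% were higher at such a p. Groups did not overlap in 4.27% in the higher direction and 5.48% in the lower. Of 11 other stellate cell and pericyte genes, 3 lay above 0, 7 below and Pth1r at 0, with a median of -0.11. Angptl6, the 1 gene of this list at an unadjusted p under 0.05, differed by -0.45 (SE 0.18, 95% interval -0.86 to -0.03) without overlap. It had wild-type values of 7.41, 7.51 and 7.65 and knockout values of 6.95, 7.08 and 7.20. Cxcl12, at -0.20 (SE 0.19), also had no overlap. The shares of all genes in the lower direction were 3.42% by this p and 5.48% by lack of overlap.

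Other cell types of the sample were read beside these values. Limma called 0 markers of each list. Markers of sinusoidal endothelium lay above 0 in 9 of 14 genes (median 0.15). Pecam1, among these 9, had a mean of 3.97 in wild-type and 4.19 in knockout livers. It was tested only through the group where it was higher, so its direction should be given no weight. The summed level of these markers ran from 12.59 to 12.78 in wild-type and from 12.53 to 12.80 in knockout livers. Sums here are the log2 of the summed linear values of all listed genes on the array, those under the filter included. Kupffer cell and macrophage markers lay above 0 in 9 of 12 and below in 3 (median 0.19), with sums of 13.35 to 13.59 and 13.47 to 13.62. The 2 of these 12 at an unadjusted p under 0.05 were C1qa, at 1.05 (SE 0.35), and Cd68, at 0.50 (SE 0.20). Both were higher in knockout without overlap. Over all genes, 3.04% had such a p in that direction and 4.27% had no overlap in it. C1qb and C1qc differed by 0.08 (SE 0.22) and 0.31 (SE 0.20). The 3 markers below 0 were Csf1r, at -0.63 (SE 0.32), Clec4f, at -0.15 (SE 0.31), and Fcna, at -0.13 (SE 0.24). Vascular smooth muscle markers, which include Acta2, Tagln and Des, lay above 0 in 1 of 4 and summed to 7.95 to 8.36 and 7.83 to 7.97. Des, among those below 0, passed the filter only through its wild-type livers, so its direction should be given no weight. Portal fibroblast markers, which include Eln, lay above 0 in 4 of 5 (7.96 to 8.47 and 8.06 to 8.49), and Fbln2, Gli1 and Pi16 were under the filter. Of 5 mesothelial markers, Gpm6a and Upk3b were tested and differed by 0.0027 (SE 0.28) and -0.02 (SE 0.35), and Msln, Wt1 and Bnc1 were under the filter. All 5 skeletal muscle markers were under the filter. Of the cholangiocyte markers 3 of 7 were tested, with 1 above 0 and 2 below. Krt19 differed by 0.58 (SE 0.28) and Krt7 by -0.15 (SE 0.26). Sox9, which stellate cells can also express, had wild-type values of 6.27, 5.06 and 5.75 and knockout values of 4.85, 4.49 and 5.00, a difference of -0.91 (SE 0.31, 95% interval -1.62 to -0.20) without overlap. Markers of proliferating cells lay above 0 in 6 of 6 genes (median 1.51), each at an unadjusted p under 0.05, against 3.04% of all genes in that direction, with sums of 10.21 to 10.87 in wild-type and 11.43 to 11.77 in knockout livers. Wild-type replicate 3 stood apart from the other wild-type livers in these genes, with a mean deviation of 0.22 against -1.22 and -1.28, and 0.67, 0.91 and 0.70 in the knockout livers. Groups overlapped in Mki67 (4.61, 4.17 and 7.06 against 6.94, 7.64 and 7.33) and Cdk1. They did not overlap in the other 4, against 4.27% of all genes in that direction. The part of these cell types in the matrix values was not tested.

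**Figure D4:**
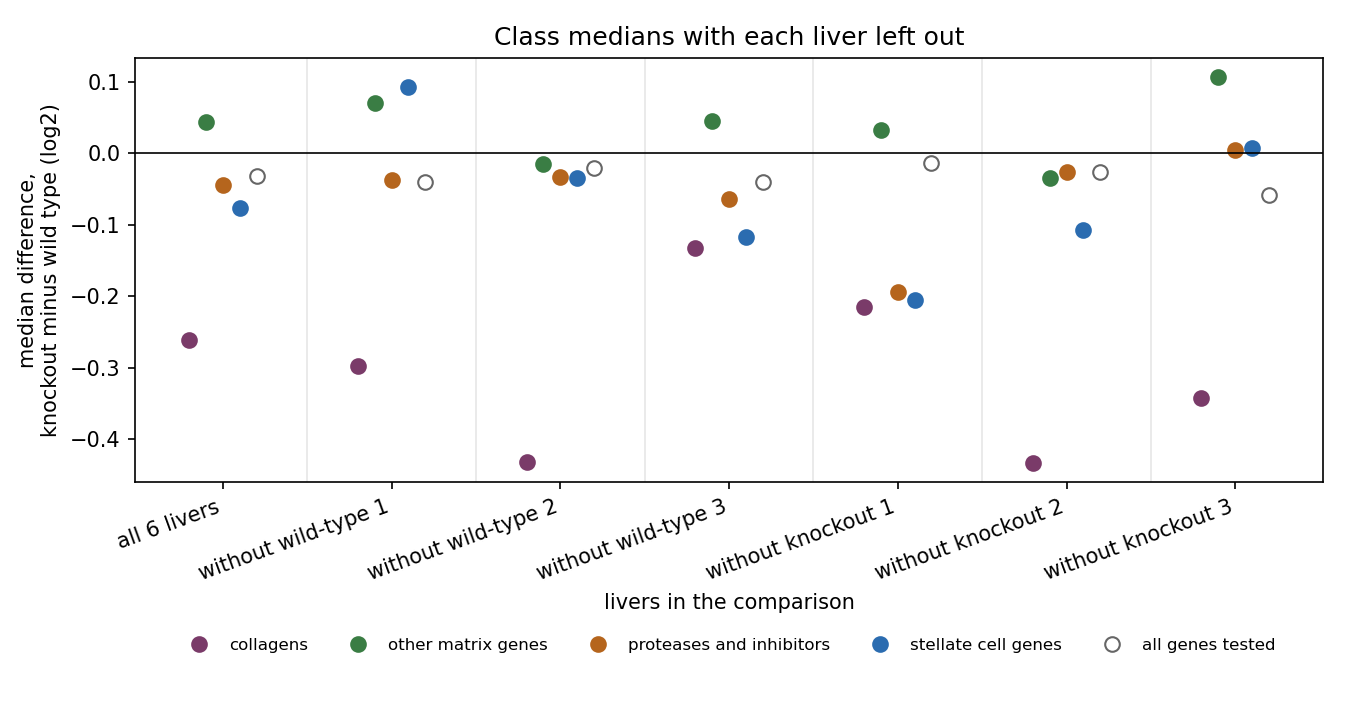
Median knockout minus wild-type difference in log2 units (y axis) of each class and of all genes tested, with all 6 livers and with each liver left out (x axis). The collagen median stays below that of all genes in each comparison, from -0.43 to -0.13, while the medians of the other classes fall on both sides of 0.

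The collagen median stayed below 0 when single livers were left out, between -0.43 (without wild-type replicate 2 or knockout replicate 2) and -0.13 (without wild-type replicate 3). The median of stellate cell genes turned from -0.08 to 0.09 without wild-type replicate 1 and to 0.01 without knockout replicate 3. Weighting arrays by their fit changed the calls. With limma's array weights, 9 of the 33 genes passed at an adjusted p under 0.05, against 21% of all genes. Of these Acta2, Col18a1, Col1a2, Col5a2 and Col6a2 were lower and Eln, Hgf, Pdgfrb and Vim higher in knockout, with Hgf above the filter only in the mean of its knockout livers. The weights were 6.12 for knockout replicate 2 and 2.54 for wild-type replicate 2, against 0.31 to 0.89 for the other 4 arrays, so this fit rests largely on 1 liver of each group. It also turned the sign of Col1a1 (0.39) and Col3a1 (0.30), and left collagens with 5 above 0, 6 below and a median of -0.10. The cause was not tested.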

How the data were processed

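Liver RNA of 3 wild-type and 3 SIRT7 knock-out samples was measured, 1 array each, grouped by title. The authors deposited 1 value per probe set and array, which the submitters' processing notes credit to R 2.11.1 and GCRMA 2.20.0, and whose log2 scale was read from the range of 0.84 to 13.97. GCRMA subtracts a sequence-modelled background and by default quantile-normalizes, and the sources used here do not give its settings. Array medians lay between 5.69 and 5.77, and 0 pairs of arrays were identical. Precision is limited by the number of arrays.

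Of 22626 probe sets, 20380 had 1 symbol in the platform annotation, 691 several and 1555 none or no entry, and 20351 of those with 1 symbol matched RefSeq (GRCm38.p6) by gene ID. Only probe sets with 1 symbol were used. Each of 12393 genes took its probe set with the highest mean, and 8343 genes with a mean of at least 4 were fitted with limma 3.58.1 in R 4.3.3 (lmFit, eBayes, 2-sided, 4 residual degrees of freedom, Benjamini-Hochberg over all genes). Errors are moderated SEs and 95% intervals, or SD over 3 livers. The procedure was tested on simulated data. Alternatives were 2 other filters, mean probe sets, other probe sets, quantile normalization, array weights, an intensity trend, the replicate block and each array left out.

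Members and lists were chosen with earlier results of these data known. By rule, values per liver were given for genes without overlap, with an unadjusted p under 0.05, with the 3 smallest p or highest mean in their class, and for Acta2, Col1a1, Timp1, Lrat and Des, and wider lists gave their genes at an unadjusted p under 0.05 or the 2 with the smallest p. Genes given per liver beyond these, among them Col3a1, Col4a1, Col4a2, Col6a1, Timp3, Rgs5, Pdgfrb, Reln, Tagln and Tgfb1, and Sox9, were chosen after their values were seen.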

Additional observations from a re-analysis of the deposited data

How the results depend on the processing

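Limma called 0 of the collagen, matrix, protease and stellate cell genes without a filter on dim genes (36 tested), with a filter at 6 (24 tested), with the mean of a gene's probe sets (30 tested), under quantile normalization, with an intensity trend and robust prior, with the replicate block and in each of the 6 fits without 1 array. The array weights were the exception, with 9. Over all genes limma called 1748 with array weights, 1 with the mean of probe sets and 1 to 38 without 1 array, against 2. The titles do not say whether samples with the same number are paired. Deviations of same-numbered livers correlated at -0.09, -0.09 and -0.19, and those of differently numbered livers at -0.25 to 0.31. With deviations taken from means of 3 samples, these correlations cannot decide whether the samples are paired. With the replicate block 0 of 33 genes and 2 of 8343 were called. The median of proteases and inhibitors ran from -0.19 to 0.0047 and that of stellate cell genes from -0.20 to 0.093 without 1 array, and the latter was -0.21 with array weights. Signs turned with array weights in Col14a1 (0.19), Col1a1 (0.39), Col3a1 (0.30), Col5a1 (0.10), Loxl1 (0.062), Lrat (-0.21), Reln (0.012), Timp2 (-0.096) and Timp3 (-0.10), with the mean of probe sets in Bgn (-0.13) and Mmp2 (0.014), and on other probe sets in Bgn (-0.23), Bgn (-0.19), Mmp2 (0.12), Timp2 (-0.14) and Timp2 (-0.12). Without 1 array the sign turned at least once in 18 genes, whose differences ran over -0.035 to 0.12 for Bgn, -0.36 to 0.059 for Col1a1, -0.53 to 0.025 for Col3a1, -0.24 to 0.33 for Col4a1, -0.34 to 0.16 for Col4a2, -0.31 to 0.17 for Col5a1, -0.015 to 0.48 for Dcn, -0.063 to 0.51 for Eln, -0.32 to 0.055 for Fn1, -0.20 to 0.019 for Loxl1, -0.38 to 0.23 for Lrat, -0.16 to 0.045 for Lum, -0.25 to 0.081 for Mmp2, -0.29 to 0.093 for Reln, -0.015 to 0.28 for Sparc, -0.33 to 0.0093 for Tagln, -0.14 to 0.26 for Timp2 and -0.45 to 0.40 for Timp3. All of these were uncalled differences in the comparison of 6 livers, and the cause was not tested. The number of samples limits the precision, with half-widths of the 95% intervals between 0.40 and 1.06, and values near the filter carry no detection call.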
